A study of Mus musculus with 2 samples.

Results

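The genes described here are 10 integrin subunits of the mouse, among them Itgav, which encodes CD51, the surface protein on which the cells had been sorted. They were chosen by name from the 21849 genes of the count matrices, and all 10 had UMIs in both libraries. Itgav, Itga2, Itga5, Itga6, Itga10 and Itga11 encode alpha chains, and Itgb1, Itgb3, Itgb5 and Itgb8 encode beta chains. Costal cartilage-derived stem cells (CDSCs) had been isolated enzymatically from rib cartilage of newborn C57BL/6J mice, CD45.1 or ZsGreen, in the week after birth and sorted as CD45-CD51+ cells. CD45 marks blood cells. One group was primary CDSCs and the other was cultured CDSCs at passages 2 to 3, and the question was how CDSCs change when they are grown in culture. Each group was 1 library of 3′ single-cell RNA sequencing. The sources used here do not say how many mice were pooled in a library, which of the 2 strains a library came from, or whether the cultured cells derived from the primary ones. Both libraries are labelled as bone marrow tissue, with CDSCs as the cell type.

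Integrins are receptors made of an alpha and a beta chain that tie the cell to its extracellular matrix and, through talin and kindlin, to the actin cytoskeleton. The alpha chain largely sets the ligand: Itga10, Itga11, Itga1 and Itga2 belong to collagen receptors, Itga6, Itga3 and Itga7 to laminin receptors, and Itgav, Itga5, Itga8 and Itga2b to receptors for the arginine-glycine-aspartate (RGD) motif of fibronectin, vitronectin, osteopontin and latent TGF-beta. Itgb1 pairs with most alpha chains, whereas Itgb3, Itgb5 and Itgb8 pair with Itgav, and cartilage is the tissue in which the Itga10 chain is best known as the collagen receptor of chondrocytes.

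The sum of the unique molecular identifiers (UMIs), each 1 captured transcript, was 137148874 over 11746 primary cells and 330129909 over 5338 cultured cells, with medians of 10026.5 and 56864.5 UMIs per cell. Levels are given as CPM, the UMIs of a gene per 1000000 UMIs of its library, and were not divided by gene length because a 3′ library counts a transcript once whatever its length. With 1 library per group no test was possible, every interval is an exact 95% interval that covers counting error only, and the difference between groups cannot be told apart from a difference between libraries or animals. A count of 3 stood for 0.0219 CPM in primary and 0.00909 CPM in cultured CDSCs. The libraries stood apart in several ways. The cell filter left out 1.26% of the primary and 50.6% of the cultured barcodes, ZsGreen had 60957 UMIs in primary and 0 in cultured CDSCs, and the Y-linked Uty was at 0.0802 CPM and 61.2 CPM. Strain, sex and group therefore cannot be told apart here. ZsGreen transcripts were found in the primary library only, so the 2 libraries are not read as the same cells before and after culture. The libraries shared 32 barcodes, 15 of them among the kept cells. One cultured cluster of 887 cells had a median of only 1293 UMIs, and results with and without it are given under the processing alternatives.

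The labelled cell type was checked on marker genes. All 14 chondrocyte markers reached 10 CPM in primary CDSCs (summed 92247 CPM), and 3 of the 14 did in cultured CDSCs (summed 638 CPM). Acan, the main cartilage proteoglycan, was at 1954 CPM in primary and 2.51 CPM in cultured CDSCs. Ptprc, the gene of CD45, was at 0.620 CPM and 0.345 CPM, and 0 and 1 of 12 haematopoietic markers reached 10 CPM with summed levels of 10.5 CPM and 32.2 CPM. Of 10 mesenchymal fibroblast markers, 7 reached 10 CPM in either library, with summed levels of 3241 CPM and 1236 CPM. Of 5 tenocyte markers, 4 did in primary and 2 in cultured CDSCs, with summed levels of 1883 CPM and 134 CPM. Of 7 skeletal muscle markers, 2 did in each library, with summed levels of 308 CPM and 26.3 CPM. Adipocyte lineage markers summed to 33.0 CPM and 120 CPM, and osteoblast markers to 113 CPM and 116 CPM. Endothelial markers summed to 28.5 CPM and 29.3 CPM, and smooth muscle and pericyte markers to 176 CPM and 51.6 CPM. No mast cell, erythroid or Schwann marker reached 10 CPM in either library.

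Promoter sequences were read for the sort marker and for the members whose level differed most with enough counts. They were thus picked by their levels, and a link between the letters and the levels was not tested. RefSeq (GRCm38.p6) held an entry for 8 of the 10 members, from 250 bases before to 50 bases after the start of the gene in RefSeq, and not for Itga6 and Itgb3. For Itga11 and Itgb8 this start lies inside the gene as GENCODE M21 has it. Capitals mark matches of the letters searched on both strands, which were GGGCGG (the GC box), the TATA box TATAAA, the box CCAAT, the AP-1 letters TGANTCA, the SOX letters AACAAT and the TEAD letters GGAATG, which read CATTCC on the other strand. The windows are chr2:83724147-83724446 (Itgav), chr8:128685404-128685703 (Itgb1), chr3:96645334-96645633 (Itga10) and chr9:62677605-62677904 (Itga11), all on the + strand and printed 5′ to 3′.
Itgav: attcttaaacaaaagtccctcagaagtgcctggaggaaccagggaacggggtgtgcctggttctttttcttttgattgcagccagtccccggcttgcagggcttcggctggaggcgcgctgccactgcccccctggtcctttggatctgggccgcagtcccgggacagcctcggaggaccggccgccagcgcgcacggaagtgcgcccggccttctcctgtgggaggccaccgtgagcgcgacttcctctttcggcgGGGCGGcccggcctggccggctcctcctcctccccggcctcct
Itgb1: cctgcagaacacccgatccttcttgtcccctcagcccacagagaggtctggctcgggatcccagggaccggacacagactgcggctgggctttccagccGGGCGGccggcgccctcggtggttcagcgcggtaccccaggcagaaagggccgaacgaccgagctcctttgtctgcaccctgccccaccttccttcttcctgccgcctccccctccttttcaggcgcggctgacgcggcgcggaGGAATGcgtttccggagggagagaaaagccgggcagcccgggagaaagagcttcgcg
Itga10: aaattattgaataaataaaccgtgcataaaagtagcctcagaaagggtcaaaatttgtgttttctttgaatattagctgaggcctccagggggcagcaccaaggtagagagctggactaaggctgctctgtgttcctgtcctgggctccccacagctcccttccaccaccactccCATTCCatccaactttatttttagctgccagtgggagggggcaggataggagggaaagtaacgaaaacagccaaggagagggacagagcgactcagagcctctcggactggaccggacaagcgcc
Itga11: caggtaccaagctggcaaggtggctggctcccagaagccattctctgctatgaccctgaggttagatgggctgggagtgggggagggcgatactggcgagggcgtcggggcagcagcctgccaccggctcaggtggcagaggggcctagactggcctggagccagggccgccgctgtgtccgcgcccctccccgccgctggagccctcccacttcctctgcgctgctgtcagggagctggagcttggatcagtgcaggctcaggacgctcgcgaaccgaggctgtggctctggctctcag
The Itgav and Itgb1 windows each held 1 GC box, as did those of Itga2, Itga5 and Itgb5 at least once, so 5 of the 8 member windows held the box, against 35.7% of 32851 RefSeq windows of this length. The letters GGAATG stood in 2 of the 8, the Itgb1 and Itga10 windows, and in 14.7% of all windows. The Itga11 window held none of the 6. GC content was 67.3% for Itgav and for Itgb1 and 68.0% for Itga11, against 51.0% for Itga10 and a median of 52.7% over all windows. The TATA, AP-1 and SOX letters stood in none of the 8 member windows and in 13.6%, 7.81% and 10.7% of all windows. The CCAAT letters, in 37.4% of all windows, stood in that of Itgb8. A match is a run of letters, not a site of binding.

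Cultured CDSCs held more Itgb1 and Itga11 and less Itga10 and Itga6 than primary CDSCs, whereas the sort marker Itgav differed little. The 7 members that reached 10 CPM in a library were read for a 2-fold difference, and 2 were higher (Itgb1 and Itga11), 2 were lower (Itga6 and Itga10) and 3 were under 2-fold (Itgav, Itgb5 and Itga5). Of the 9115 genes at that level, 27.2% passed 2-fold upward and 12.5% downward, 39.8% in all, so the members' 4 of 7 stood beside a background in which such differences were common. Under TMM scaling these shares were 21.9% and 15.5%. The median log2 ratio (cultured over primary CPM) was 0.24 over the 7 members and 0.37 over all genes tested, and TMM moved every ratio by -0.20. A 4-fold limit was passed by 2 members upward and 1 downward (10.6% and 5.73% of all genes tested, 16.3% in all). With a minimum of 1 CPM, 3 of 10 members passed 2-fold upward and 2 downward (28.9% and 15.1% of 12839 genes, 44.0% in all). With a minimum of 100 CPM, 1 of 3 passed upward and 0 downward (30.3% and 18.0% of 2246 genes, 48.3% in all).

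**Figure D1:**
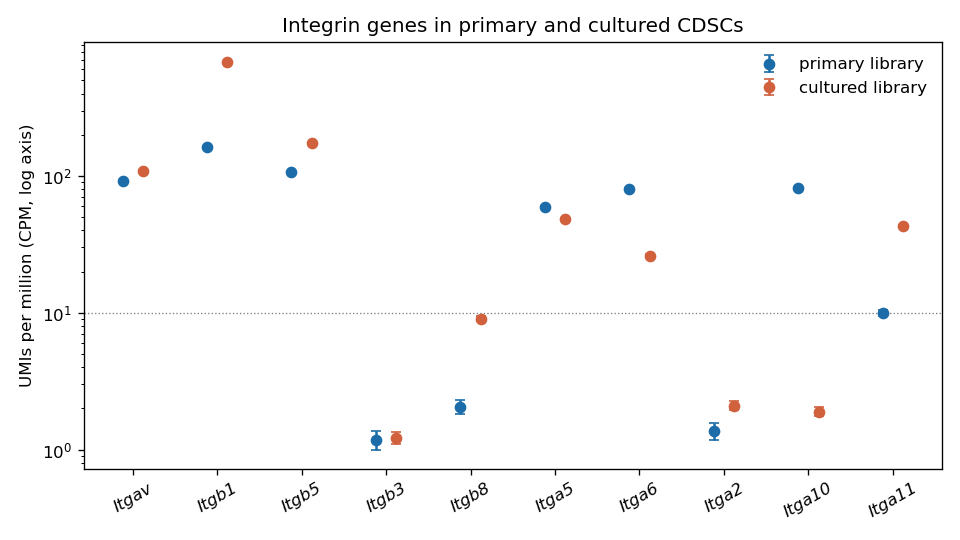
Level of the 10 integrin genes in CPM (log axis) in primary and cultured CDSCs. Points are library values, bars are exact 95% Poisson intervals for counting error, and the dotted line marks 10 CPM. Itga10 stands at 80.9 CPM in primary and 1.89 CPM in cultured CDSCs, while Itgav stands at 92.5 CPM and 109 CPM.

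Itgav (ENSMUSG00000027087, GRCm38 chr2:83724397-83806916), the gene of the alpha chain CD51, had 12680 UMIs or 92.5 CPM (90.9 to 94.1) in primary CDSCs. In cultured CDSCs it had 36034 UMIs or 109 CPM (108 to 110). The cultured level was slightly higher, with a log2 ratio of 0.24 (0.21 to 0.27), which lay at percentile 44.8 of all genes tested and 0.13 below their median. The mean count per cell, not scaled for depth, was 1.08 and 6.75 UMIs. Because the cells had been sorted on the CD51 protein before sequencing or culture, the level in either library is that of sorted cells and their descendants. The sign of the ratio was the same in all 9 alternatives that gave one, and its size was 0.043 under TMM.

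Itgb1 (ENSMUSG00000025809, chr8:128685654-128733200), the common beta chain, was the most abundant member in both libraries. It had 163 CPM (161 to 165) in primary and 679 CPM (677 to 682) in cultured CDSCs, a 4.17-fold difference with a log2 ratio of 2.06 (2.04 to 2.08). Of all genes tested, 90.0% had a lower ratio.

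The beta chains that pair with Itgav alone or with few partners were at lower levels than Itgb1. Itgb5 (ENSMUSG00000022817, chr16:33829665-33949338), a vitronectin receptor chain, was at 107 CPM (105 to 109) in primary and 173 CPM (172 to 175) in cultured CDSCs, with a log2 ratio of 0.69 (0.67 to 0.72). Itgb8 (ENSMUSG00000025321, chr12:119158022-119238802), a chain of the receptor that releases active TGF-beta, was at 2.05 CPM (1.82 to 2.30) and 9.06 CPM (8.74 to 9.39), from 281 and 2992 UMIs. Its log2 ratio was 2.15 (1.97 to 2.33), but it stayed under 10 CPM. Itgb3 (ENSMUSG00000020689, chr11:104608000-104670476), the beta chain of the osteoclast and platelet vitronectin receptors, was at 1.17 CPM and 1.21 CPM from 161 and 399 UMIs, and the interval of its log2 ratio (-0.23 to 0.32) included 0. The ratio of Itgb3 was 0.04 and turned to -0.15 under TMM. Among the 4 beta members Itgb1 was followed by Itgb5, Itgb8 and Itgb3 in both libraries, and no intervals of neighbours in that order overlapped.

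The collagen-binding alpha chains differed in opposite directions. Itga10 (ENSMUSG00000090210, chr3:96645584-96664519) had 11102 UMIs or 80.9 CPM (79.4 to 82.5) in primary CDSCs and 625 UMIs or 1.89 CPM (1.75 to 2.05) in cultured CDSCs. This was 42.8-fold lower in the cultured library, with a log2 ratio of -5.42 (-5.54 to -5.30), at percentile 1.21 of the genes tested. Its gene overlaps Gm42957, which had 464 and 37 UMIs. Itga11 (ENSMUSG00000032243, chr9:62677826-62783982), the collagen receptor chain of fibroblasts, had 1371 UMIs or 10.00 CPM (9.47 to 10.5) and 14097 UMIs or 42.7 CPM (42.0 to 43.4). It was 4.27-fold higher in the cultured library, with a log2 ratio of 2.09 (2.01 to 2.18). Itga2 (ENSMUSG00000015533, chr13:114833081-114932100), the collagen receptor chain of platelets and epithelia, was at 1.36 CPM and 2.09 CPM from 187 and 689 UMIs, with a log2 ratio of 0.61 (0.38 to 0.86).

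Of the other alpha chains, Itga6 was lower and Itga5 was close in level. Itga6 (ENSMUSG00000027111, chr2:71745616-71858416), the main laminin receptor chain, was at 80.6 CPM (79.2 to 82.2) in primary and 26.1 CPM (25.6 to 26.7) in cultured CDSCs, 3.09-fold lower with a log2 ratio of -1.63 (-1.67 to -1.59). Itga5 (ENSMUSG00000000555, chr15:103344286-103366763), the chain of the main fibronectin receptor, was at 59.4 CPM (58.1 to 60.7) and 48.7 CPM (47.9 to 49.4), with a log2 ratio of -0.29 (-0.33 to -0.25). Its sign did not hold when each cell weighed the same, where the ratio was 0.01. Among the 6 alpha members the order was Itgav, Itga10, Itga6, Itga5, Itga11 and Itga2 in primary CDSCs, where only the intervals of Itga10 and Itga6 overlapped. In cultured CDSCs it was Itgav, Itga5, Itga11, Itga6, Itga2 and Itga10, where the intervals of the last pair overlapped.

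Integrin genes outside the 10 were read for the make-up of each ligand class. Of 16 other integrin subunits, 13 were under 10 CPM in both libraries, 2 were at least 2-fold higher and 1 was lower, beside 27.2% and 12.5% of all genes tested. Itga3, a laminin receptor chain, was at 1.33 CPM in primary and 35.3 CPM in cultured CDSCs (log2 ratio 4.72). Itga1, a collagen receptor chain, was at 13.6 CPM and 86.8 CPM (2.67), and Itga9, which binds tenascin and osteopontin, at 34.7 CPM and 9.69 CPM (-1.84).

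As a share of the collagen-binding alpha UMIs, Itga10 gave 76.4% in primary and 1.42% in cultured CDSCs. Itga1 gave 12.9% and 65.02%, Itga11 gave 9.44% and 32.0%, and Itga2 gave 1.29% and 1.56%. The class as a whole differed far less, at 106 CPM and 133 CPM, a log2 ratio of 0.33 (0.31 to 0.36). The laminin-binding class was at 82.4 CPM and 63.7 CPM (-0.37), within which Itga6 gave 97.9% in primary and 41.0% in cultured CDSCs. Itga3 gave 1.62% and 55.4%. The RGD-binding class was at 157 CPM and 171 CPM (0.13), and Itgav gave 59.0% and 63.7% of it and Itga5 37.9% and 28.4%.

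The pairing chains did not keep step. The alpha chains that pair with Itgb1 summed to 377 CPM in primary and 372 CPM in cultured CDSCs, a log2 ratio of -0.02 (-0.04 to -0.01), while Itgb1 itself was 4.17-fold higher. There were 0.432 UMIs of Itgb1 for each UMI of these alpha chains in primary and 1.83 in cultured CDSCs. The chains that can pair with Itgav summed to 274 CPM and 864 CPM (1.66). Without Itgb1 they summed to 111 CPM and 184 CPM (0.73), of which Itgb5 gave 96.7% and 94.0%.

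**Figure D2:**
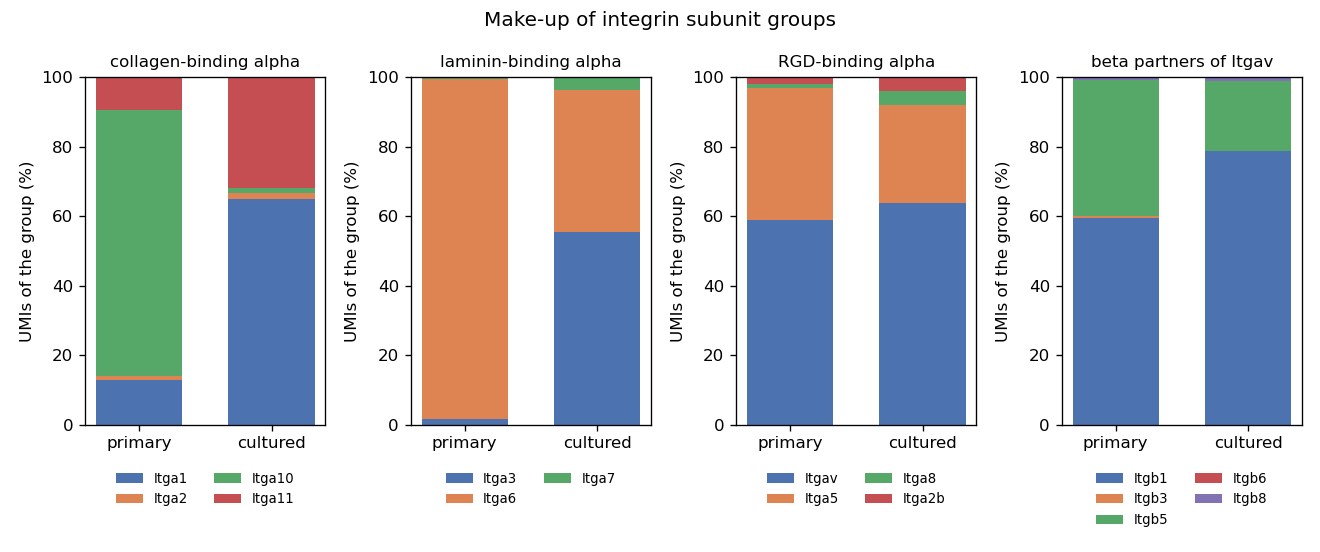
Share of the UMIs of each integrin subunit group (percent) given by each of its genes in the primary and the cultured library, as stacked bars with 1 colour per gene. Itga10 fills 76.4% of the collagen-binding alpha bar for primary and 1.42% for cultured CDSCs, and Itga6 fills 97.9% and 41.0% of the laminin-binding bar.

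Shares of cells with a UMI were compared at 5000 UMIs per cell. Thinning kept 10959 primary and 4543 cultured cells, and 787 and 795 shallower cells were dropped. At this depth 53.4% (52.4% to 54.3%) of primary cells had an Itgb1 UMI, against 92.6% (91.8% to 93.3%) of cultured cells. For Itga10 the shares were 32.8% (32.0% to 33.7%) and 0.969% (0.705% to 1.30%), which is the widest relative gap among the members. For Itgav they were 30.8% (29.9% to 31.7%) and 41.4% (39.9% to 42.8%), so a larger share of cultured cells had a UMI although the CPM differed little. Its count per cell was more uneven in primary cells, with a variance of 1.64 times the mean against 1.20 in cultured cells. The highest count was 11 against 7, over more primary than cultured cells. Itga5 had the same feature, with 1.69 and 1.19 times the mean, and so, less strongly, had Itga6 (1.84 and 1.66). Itgb1 (1.21 and 1.62) and Itga11 (1.19 and 1.43) went the other way.

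Itgb5 was detected in 40.1% and 55.5% of cells, Itga11 in 4.70% and 19.6%, and Itga6 in 26.3% and 9.99%. Itgb8 was detected in 0.976% and 4.36% and Itga2 in 0.630% and 1.12%. Itgb3 was detected in 0.520% (0.394% to 0.673%) and 0.550% (0.356% to 0.811%), a difference that was not detectable at this depth. Itga5 was detected in 19.3% and 21.8%, against its lower CPM in the cultured library, so no order is read from this share. Without thinning the shares were 49.97% and 83.2% for Itgav, 43.3% and 43.0% for Itga6, and 54.8% and 9.57% for Itga10. Ptprc was detected in 0.319% of primary and 0.110% of cultured cells after thinning.

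**Figure D3:**
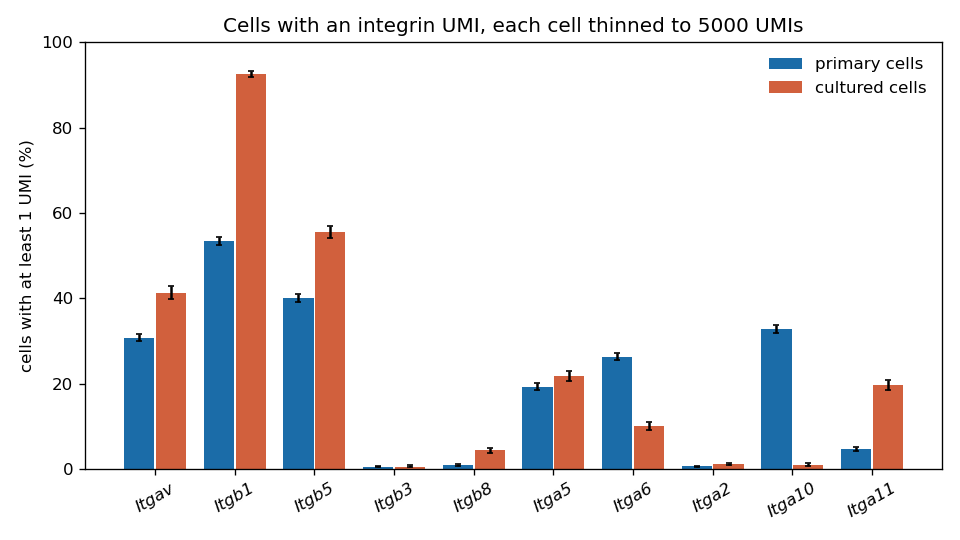
Percent of cells with at least 1 UMI of each member after thinning to 5000 UMIs per cell, in 10959 primary and 4543 cultured cells. Bars are shares and error bars exact 95% binomial intervals. Itgb1 stands at 53.4% and 92.6%, Itga10 at 32.8% and 0.969%.

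A thinned cell had UMIs of a median of 2 members in either library, with means of 2.10 and 2.48. No member was detected in 828 primary and 95 cultured cells, and no cell had more than 6. Itgav and Itgb5 were found together in 12.2% of primary and 22.8% of cultured cells. Itgb5 was found in 39.7% of primary cells with an Itgav UMI and 40.3% of those without. In cultured cells Itgb5 was found in 55.2% and 55.8%, so Itgb5 was no more frequent beside Itgav. Itgb1 was found in 53.1% of primary cells with an Itgav UMI and 53.5% of those without, and the intervals of these shares overlapped. In cultured cells these shares were 94.3% (93.2% to 95.3%) and 91.4% (90.2% to 92.4%). Itga10 and Itgb1 were found together in 17.7% of primary and 0.947% of cultured cells, and Itga11 and Itgb1 in 2.70% and 18.7%. Itgb1 was found in 53.8% of primary cells with an Itga10 UMI and 53.1% of those without, and for Itga11 in 57.5% and 53.2%. The intervals overlapped for both genes. In cultured cells these shares were 97.7% (88.0% to 99.9%, from only 44 cells) and 92.5% for Itga10, whose intervals overlapped too. For Itga11 they were 95.2% (93.6% to 96.5%) and 91.9% (91.0% to 92.8%). Among cultured cells with an Itga1 UMI 22.6% (20.4% to 24.8%) also had Itga11, against 18.3% (17.0% to 19.7%) of the rest. These are descriptions of cells from 1 library each.

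Cells were clustered within each library without any integrin gene. Of the primary cells 11456 fell into 7 chondrocyte-like clusters, and the others were 217 mesenchymal fibroblast-like cells with tendon markers, 25 endothelial-like, 6 smooth muscle and pericyte-like and 42 unnamed cells. Of the 217, 79 formed a cluster in which 11 of the 14 chondrocyte markers also reached 1000 CPM. The 42 cells had 6 fibroblast and 4 tendon markers in excess, but stayed unnamed because the tendon marker Thbs4 and no fibroblast marker was among their leading genes. Of the cultured cells 5135 were in 7 unnamed clusters, 173 were mesenchymal fibroblast-like and 30 were haematopoietic-like, led by Pf4 and Lyz2. The 7 primary and 7 cultured clusters with at least 100 cells and a median of at least 5000 UMIs were set side by side for the spread of each member within a library. Clusters are not replicates.

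For 4 members the ranges over clusters lay apart. How many of all genes had ranges that lay apart was not counted, so this describes these members only. In the library totals, which is a different measure, 39.8% of all genes tested were at least 2-fold apart. Itga10 was between 54.3 CPM and 122 CPM in the primary and between 0.951 CPM and 3.05 CPM in the cultured clusters. Itgb1 was between 139 CPM and 188 CPM in the primary and between 525 CPM and 956 CPM in the cultured clusters. Itga6 ranged from 46.4 CPM to 121 CPM against 7.95 CPM to 39.3 CPM, and Itga11 from 3.79 CPM to 18.4 CPM against 22.2 CPM to 98.2 CPM. For these 4 genes every pair of clusters compared went the same way as the library totals. Clusters of 1 library share its preparation, so this adds no evidence beyond those totals. For Itgav the ranges overlapped, at 66.0 CPM to 112 CPM and 75.6 CPM to 138 CPM, as they did for Itgb5 (77.6 CPM to 121 CPM and 117 CPM to 201 CPM), Itga5 (26.8 CPM to 86.8 CPM and 32.7 CPM to 119 CPM), Itgb8, Itga2 and Itgb3.

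**Figure D4:**
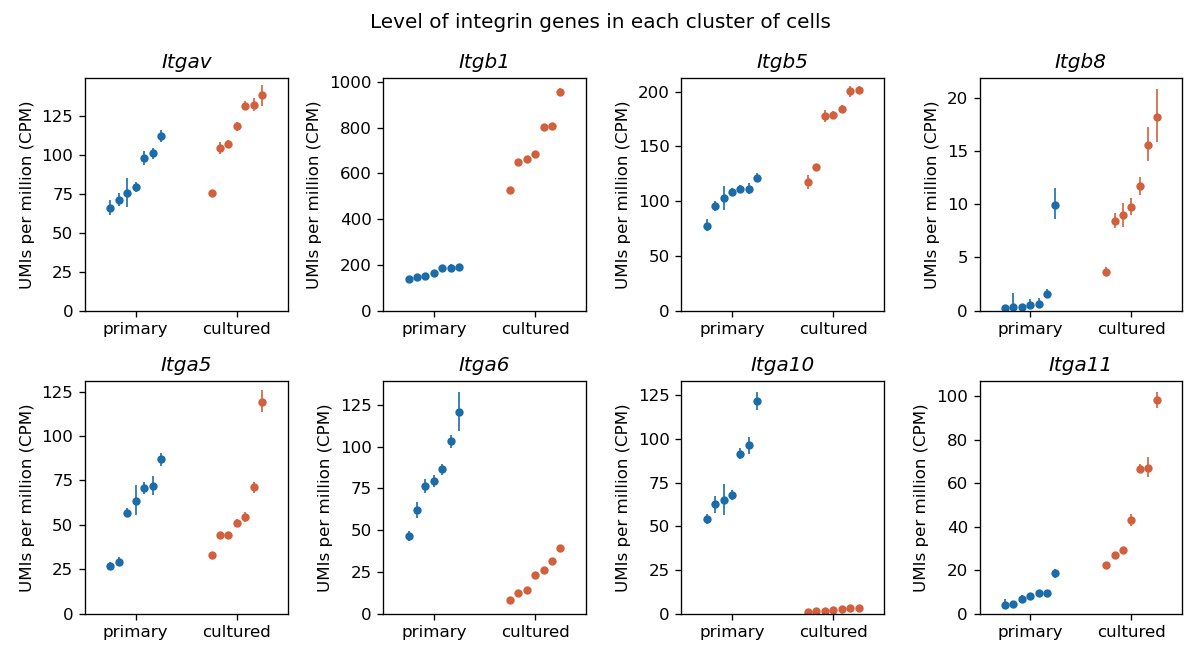
Level of 8 members (CPM) in each of the 7 primary and 7 cultured clusters with at least 100 cells and a median of at least 5000 UMIs, sorted within a library. Points are sums over the cells of a cluster and bars exact 95% Poisson intervals. The ranges of Itgb1, Itga6, Itga10 and Itga11 lie apart, and those of Itgav, Itgb5, Itgb8 and Itga5 overlap. The share of all genes whose ranges lie apart was not counted.

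Within the primary library the chondrocyte-like clusters differed in their integrins. The cluster of 2182 cells with Clu, Cilp2 and Prg4 among its leading genes, of which Prg4 encodes the lubricant of cartilage surfaces, had the highest Itga10 (122 CPM), Itga11 (18.4 CPM), Itgb1 (188 CPM) and Itgb8 (9.96 CPM, 8.57 to 11.5) and the lowest Itga5 (26.8 CPM) and Itga6 (46.4 CPM). It held 65.1% of all Itgb8 UMIs of the library, and the next chondrocyte-like cluster was at 1.54 CPM. The cluster led by Slc22a4 and Srxn1 had the highest Itgav (112 CPM) and Itga5 (86.8 CPM). The dividing cluster, led by Cenpf and Mki67, had the highest Itga6 (121 CPM, 109 to 133) and Itga11 at 3.79 CPM, its lowest. Itgav was at 101 CPM, 97.9 CPM, 79.4 CPM, 75.5 CPM, 71.2 CPM and 66.0 CPM in the other 6, the last in the cluster with Runx3 and Ptch1 among its leading genes.

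Within the cultured library the 173 mesenchymal fibroblast-like cells, which had the smooth muscle genes Cnn1 and Actg2 beside Thy1 among their leading genes, had the highest Itgav (138 CPM), Itgb1 (956 CPM), Itgb8 (18.2 CPM), Itgb3 (3.40 CPM) and Itga5 (119 CPM, 113 to 126) and the lowest Itga6 (7.95 CPM) and Itgb5 (117 CPM). The cluster led by Mmp13, which also had Comp among its leading genes, had the highest Itga11 (98.2 CPM) and Itga10 (3.05 CPM, 2.45 to 3.76). The cluster with Il1rl1 among its leading genes had the highest Itga6 (39.3 CPM) and the lowest Itga11 (22.2 CPM). The shallow cluster of 887 cells was lower than all the deep ones for Itgav, at 53.3 CPM, and for Itgb1, at 411 CPM.

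Rare cells carried part of 2 members in the primary library. The 217 mesenchymal fibroblast-like cells held 42.8% of the Itga2 UMIs of the library, at 38.6 CPM (30.6 to 48.0) against 0.684 CPM in the chondrocyte-like cells. On primary chondrocyte-like cells only, which leaves out these cells and also the endothelial-like, pericyte-like and unnamed ones, the log2 ratio of Itga2 was 1.61 in place of 0.61. They were also at 57.4 CPM (47.6 to 68.7) for Itga11 against 9.15 CPM (8.65 to 9.68), and held 8.68% of its UMIs. The 25 endothelial-like cells were at 325 CPM (263 to 399) for Itga6, 413 CPM for Itgb1 and 45.5 CPM for Itga2. Itga10, a cartilage chain, was at 35.0 CPM (16.8 to 64.3) in them against 81.5 CPM in the chondrocyte-like cells, with medians of 10273 and 10077 UMIs per cell. After thinning, 3 of 17 endothelial-like cells (17.6%, 3.80% to 43.4%) and 33.1% of the chondrocyte-like cells had an Itga10 UMI. The interval of the 17 cells held the second share, and free RNA in the droplets was not measured. The 30 haematopoietic-like cultured cells were at 103 CPM (79.5 to 130.3) for Itgav and 677 CPM (615 to 743) for Itgb1. These intervals held the levels of the whole library. Itga11 was at 15.3 CPM (7.34 to 28.2) and Itga6 at 75.0 CPM (55.5 to 99.2). The 30 cells had a median of only 1475.5 UMIs, and in such sums the deeper cells weigh most. The intervals do not cover this, so the levels are not read as those of a typical haematopoietic-like cell.

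Ligands of these receptors were read from lists and are described by counts beside the background shares given above. The list of RGD-containing and matricellular ligands had 23 genes and also held TGF-beta genes and partners of latent TGF-beta. Of the 23, 20 had at least 10 CPM, 9 of them higher and 6 lower. Their median log2 ratio was 0.48 against 0.37 over all genes tested. The highest ratios were those of Spp1 (osteopontin), at 53.1 CPM and 6573 CPM (6.95), Ltbp1, a binder of latent TGF-beta, at 8.65 CPM and 968 CPM (6.80), and Lrrc32, which tethers latent TGF-beta to the cell surface, at 1.39 CPM and 25.4 CPM (4.19). The lowest were the matrix proteins Postn, at 91.0 CPM and 3.09 CPM (-4.88), Edil3, at 300.2 CPM and 16.8 CPM (-4.16), and Tgfbi, at 263 CPM and 15.1 CPM (-4.13). Fn1, the fibronectin bound by the Itga5 and Itgav receptors, was named after its value had been seen, at 3285 CPM and 2203 CPM (-0.58).

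Collagen ligands split, with 4 of 10 tested higher, 4 lower and a median log2 ratio of -0.15. The background for them and for the laminins and nidogens was 27.2% higher and 12.5% lower over all genes tested, with a median of 0.37. The basement membrane collagens Col4a1 (15.4 CPM and 126 CPM, log2 ratio 3.03) and Col4a2 (28.5 CPM and 119 CPM, 2.06) and the bone and skin collagen Col1a1 (149 CPM and 705 CPM, 2.24) were highest. Col1a2, which encodes the other chain of the type I collagen trimer and was named after its value had been seen, was lower (691 CPM and 187 CPM, -1.88). The cartilage collagens Col9a1 (4541 CPM and 3.07 CPM, -10.53), Col2a1 (53268 CPM and 490 CPM, -6.76) and Col11a1 (6846 CPM and 446 CPM, -3.94) were lowest, in the same direction as Itga10. Of the 7 laminins and nidogens tested, 3 were higher and 2 lower with a median of 0.39. Lamb1 (4.75), Nid1 (4.07) and Lamc1 (2.02) had the highest ratios and Lama2 (-4.37), Nid2 (-1.67) and Lama4 (-0.17) the lowest.

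On the inner side of the membrane, 28 of 32 activators, plaque and signalling genes were tested, 11 were higher and 2 lower, with a median log2 ratio of 0.67. Over all genes tested 27.2% were higher and 12.5% lower, with a median of 0.37, and the same background holds for the next list. The zyxin-family partner Tes (0.817 CPM and 52.1 CPM, 5.996), the filamin-binding Fblim1 (1.08 CPM and 14.03 CPM, 3.70) and the tensin Tns3 (39.3 CPM and 422 CPM, 3.43) had the highest ratios. Lims2, a partner of integrin-linked kinase (53.5 CPM and 10.4 CPM, -2.36), and Tns2 (71.2 CPM and 18.6 CPM, -1.94) were lower, and the adaptor Pxn (paxillin) was at 35.3 CPM and 19.3 CPM (-0.88). Of 18 tested inhibitors, trafficking genes and membrane partners, 6 were higher and 1 lower, with a median of 0.74. Cd44, the hyaluronan receptor (8.11 CPM and 358 CPM, 5.46), Flna, the filamin that competes with talin for beta chains (24.6 CPM and 338 CPM, 3.78), and the tetraspanin Cd151 (16.2 CPM and 99.4 CPM, 2.62) had the highest ratios. The tetraspanin Cd9 was lower (622 CPM and 149 CPM, -2.06), while the syndecan Sdc4 (-0.25) and the recycling factor Snx17 (-0.15) were under 2-fold.

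**Figure D5:**
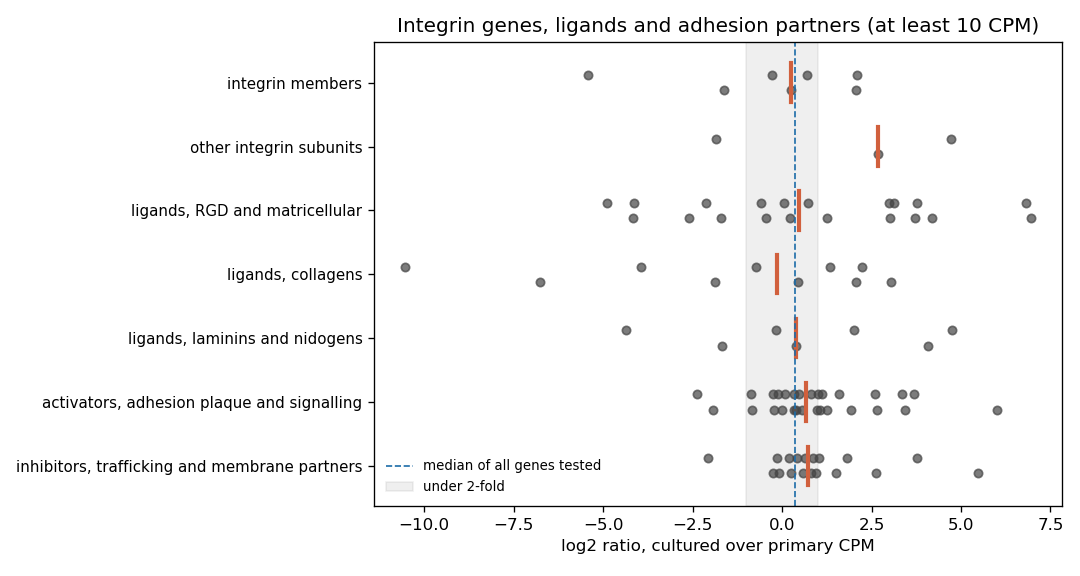
Log2 ratio of cultured over primary CPM for every gene with at least 10 CPM in the members and in 6 lists of related genes. Points are genes, red bars the list medians, the dashed line the median of all 9115 genes tested (0.37) and the grey band differences under 2-fold. Itga10 at -5.42 is the lowest member, and the list medians lie between -0.15 and 2.67.

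Genes that followed Itgav from cluster to cluster were ranked by Pearson's r of log2 levels over 15 clusters with at least 100 cells, each library centred on its own mean. Of 7038 genes with at least 10 CPM in both libraries, Sfi1 (0.933), Spaca6 (0.932), Sgpl1 (0.931), Jmjd1c (0.929) and Lima1 (0.928) were most like it. Among the members, r with Itgav was 0.67 for Itgb1, 0.59 for Itga5, 0.36 for Itgb5 and -0.15 for Itga6. Where these values stood among the 7038 genes was not read, so none is called high or low. Itgb3, Itgb8, Itga2, Itga10 and Itga11 (9.996 CPM in primary CDSCs) were under 10 CPM in at least 1 library and were not ranked. Clusters of 1 library share depth and preparation, and the shallow cultured cluster is 1 of the 15, so these values are a description.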

How the data were processed

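Single-cell RNA sequencing was performed on 1 primary and 1 cultured library of CDSCs. The authors processed reads with Cell Ranger 7.0.0 against GRCm38 (their processing notes also list GRCm39 and mm10) and deposited a matrix of unnormalised UMI counts for each library, with genes by barcodes. The annotation release was not given in the sources used here. Groups were taken from the treatment labels.

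Barcodes under 500 genes or 1000 UMIs, or over 10% mitochondrial UMIs, were left out, since the study's own limits were not given. Scrublet (scanpy 1.11.5) called 0 primary and 1 cultured doublet and had not worked, so doublets were left in, and leaving out the 1118 and 461 cells of highest score was an alternative. Counts were summed per library and scaled to CPM, and the log2 ratio is cultured over primary with counts under 3 raised to 3. Poisson, Clopper-Pearson and conditional 95% intervals were exact. With 1 library per group there was no test. The depth of 137148874 and 330129909 UMIs made counting error small for all but the rarest members. The count comparison was run on simulated Poisson counts with known ratios, which checks the calculation only. The simulation held no variation between libraries or animals.

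Each library was clustered with leidenalg 0.10.2 at resolution 0.5 (10 components, 2000 variable genes, 20 neighbours), without integrin genes. A cluster was named where at least 3 markers of a class had a 4-fold excess and at least 50 CPM, more than for any other class, with at least 1 of them among the 10 leading genes and no other class having more there, or as chondrocyte-like by abundance alone where no class had 3 and 3 or more chondrocyte markers reached 1000 CPM. TMM factors came from edgeR 4.0.16. Positions are from GENCODE M21, where 21707 of 21849 identifiers matched, and promoter windows from RefSeq.

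Named were all members, the 3 highest and 3 lowest genes of each list by log2 ratio from 10 CPM upward, each other integrin subunit at that level, the 5 genes most like Itgav, and checks of the sort and libraries. Fn1, Acan, Col2a1, Col1a2 and Gm42957 were added after their values had been seen. Members and lists were chosen with earlier results of these data known.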

Additional observations from a re-analysis of the deposited data

How the results depend on the processing

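The log2 ratio of each member was recomputed under 9 alternatives, of which leaving out the shallow cultured cluster and keeping only the primary chondrocyte-like clusters were chosen after seeing the data. The ratio of Itgav was 0.043 under TMM scaling and 0.28 with each cell weighing the same, against 0.24. The ratio ranged from 1.86 to 2.11 for Itgb1, from 1.90 to 2.22 for Itga11, from -1.82 to -1.54 for Itga6 and from -5.61 to -5.38 for Itga10, and without the shallow cluster Itgav was at 0.25. Itgb3 changed sign in 2 of the 9 and Itga5 in 1.

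The same 4 members were at least 2-fold apart under each of these 9, beside 39.8% of all genes tested in the main setting. A 4-fold threshold gave 3, without Itga6, beside 16.3% of all genes tested. A minimum of 1 CPM gave 5, with Itgb8 added, beside 44.0%. A minimum of 100 CPM gave 1, Itgb1, because only 3 members remained, beside 48.3%. The share of cells with an Itga5 UMI was higher in cultured cells by 2.53 percentage points at 5000 UMIs, but the difference was -1.94 at 10000 UMIs. No paired analysis was possible because each group held 1 library, and for the same reason no replicate could be left out. Depth limits Itgb3 most, with 161 UMIs in the primary library.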
